A study of Mus musculus with 8 samples.

Results

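Tuft cells were taken here as barcodes of the sorted small and large intestinal single-cell libraries with at least 500 detected genes, at most 20% mitochondrial UMIs (unique molecular identifiers, each counting 1 captured RNA molecule) and at least 10 UMIs summed over Dclk1, Trpm5, Avil and Rgs13. This rule gave 109 barcodes in the small and 86 in the large intestinal library, 195 of the 8944 barcodes that passed the filters on genes and mitochondrial UMIs and of the 28486 barcodes and spots of the whole series. They were set against the 1763 and 5208 other barcodes with at least 1 UMI of Epcam, an adhesion molecule of epithelial cells. This group is called the other or remaining epithelium below, although 1 Epcam UMI does not make a barcode an epithelial cell. Because the members were chosen on measured values of the same libraries, every difference below is a description and none was tested.

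Tissue came from C57BL/6 mice and from Lgr5-eGFP-ires-CreERT2 mice on the C57BL/6 background, a knock-in line in which the Lgr5 promoter of stem cells drives green fluorescent protein and an inducible Cre recombinase. The labels of these libraries name no treatment and no age, and do not say how many animals of which kind entered each library. The Visium sections used at the end are labelled WT and C57BL/6. Each library joined 3 sorts, of live cells, of LGR5+ cells and of lymphatic endothelial cells (CD31+ PDPN+ LYVE1+), in numbers of 50, 50 and 20 to 25 times 1000, and the small and large intestine were handled separately, with 1 library each. Tissue and library therefore cannot be told apart, and shares of cells describe the sorted libraries and not the organ.

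Tuft cells are a rare, chemosensory cell of the gut epithelium with an apical tuft of stiff microvilli. They sense luminal succinate, other metabolites and parasites through receptors coupled to the signal transduction chain of taste cells, in which a G protein, a phospholipase C and the calcium-gated channel Trpm5 follow each other. In response they release interleukin 25, leukotrienes, prostaglandins and acetylcholine, and they need the transcription factor Pou2f3 to form.

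The small intestinal library held 78482770 UMIs and the large intestinal one 142501907 UMIs. Tuft barcodes had a median of 16428 UMIs in the small intestine (range 3930 to 49844) and 16478 in the large (5144 to 94509), against 25160 and 24828 in the other Epcam-positive barcodes, and a median of 4415 and 4207.5 detected genes. Mitochondrial UMIs made up a median of 6.91% and 7.71%. The libraries shared 25 barcode sequences; none was a tuft barcode in both, and 1 tuft barcode also occurred in the other library. Levels below are CPM, the UMIs of a gene summed over a group of barcodes scaled to a total of 1e+06 UMIs, with exact 95% Poisson intervals. Shares carry exact binomial (Clopper-Pearson) intervals. Ratios are log2 ratios of CPM with exact Poisson-ratio intervals, in which a count under 3 was set to 3. All of these intervals cover counting error only and nothing of the spread between animals.

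Tuft barcodes made up 108 of 1871 Epcam-positive barcodes in the small intestinal library, or 5.77% (interval 4.76% to 6.93%), and 86 of 5294 in the large intestinal one, or 1.62% (1.30% to 2.002%). The intervals take barcodes of 1 library each, and both libraries were sorted toward LGR5+ and lymphatic endothelial cells. The summed UMIs of the 4 chosen genes ran from 11 through a median of 101 to 243 in the small and from 10 through 70.5 to 206 in the large intestine. Most members lay far inside the threshold, with 30 or more UMIs in 96 and 73 barcodes and 10 to 29 UMIs in 13 and 13. Just inside it, at 10 to 12 UMIs, were 3 and 3 barcodes, and just outside, at 7 to 9 UMIs, were 5 and 10. Of the other Epcam-positive barcodes, 88.5% and 93.7% had no UMI of any of the 4 genes.

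The rule genes describe how the members were chosen and do not check the label. All 4 rule genes were detected in 101 of 109 small and 77 of 86 large intestinal members. Dclk1 (ENSMUSG00000027797, chr3:55242303-55539068), a microtubule-binding kinase, had a median of 21.3 UMIs per 10000 in the small intestinal members (range 0 to 64.8) and 14.3 in the large (0 to 52.5). Trpm5 (ENSMUSG00000009246, chr7:143071529-143094642) had medians of 8.62 and 3.06 UMIs per 10000. Avil (chr10:127000065-127020994), an actin-bundling protein of the villin family, had 14.1 and 5.44, and Rgs13 (chr1:144137386-144177372), a brake on G protein signalling, had 19.6 and 17.7. Alox5ap, a tuft marker that the rule did not use, had UMIs in 102 of the small but 55 of the large intestinal members. Coordinates are those of RefSeq on GRCm38.p6, the assembly that the mm10 build of the files names.

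A few members carried the markers of other cells, and these are named before the results because they weigh on them. In the small intestine 3 members and in the large intestine 1 member passed on Rgs13 alone, with 11, 12 and 15 and with 10 UMIs, and had 0 UMIs of Dclk1, Trpm5 and Avil. The same 4 barcodes held 84, 67, 83 and 64 UMIs of a B cell marker list that includes Cd79a, Cd79b and Ms4a1, so that the data go against the label for them. After the values were seen, barcodes with at least 50 UMIs of a marker list of stem, cycling, colonocyte, goblet, enteroendocrine, B or fibroblast cells were set apart as mixed. There were 7 in the small and 12 in the large intestine, and they held 9.79% and 30.5% of all tuft UMIs. The enterocyte, Paneth and plasma cell lists did not count toward this limit, although the colonocyte list did. Enterocyte markers reached 50 UMIs in 19 small and 3 large intestinal members, Paneth markers in 47 and 0, and plasma markers in 0 and 4. The tissues were thus not filtered alike, which also bears on tissue ratios without mixed barcodes. In the large intestine 8 of the 12 held goblet, 6 colonocyte, 4 cycling and 2 fibroblast UMIs above this limit, and their median depth was 40213 UMIs against 15891.5 in the other 74 members. Their rule genes had a median of 11.9 UMIs per 10000, against 54.3 in the others. Scrublet, a doublet caller, placed 6 small and 9 large intestinal members among its top scores, and 3 and 6 of those were mixed barcodes. Its top scores took in 61 of all 2756 filtered small and 306 of all 6188 filtered large intestinal barcodes. Values without mixed barcodes are therefore given for the results that they move most.

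**Figure D1:**
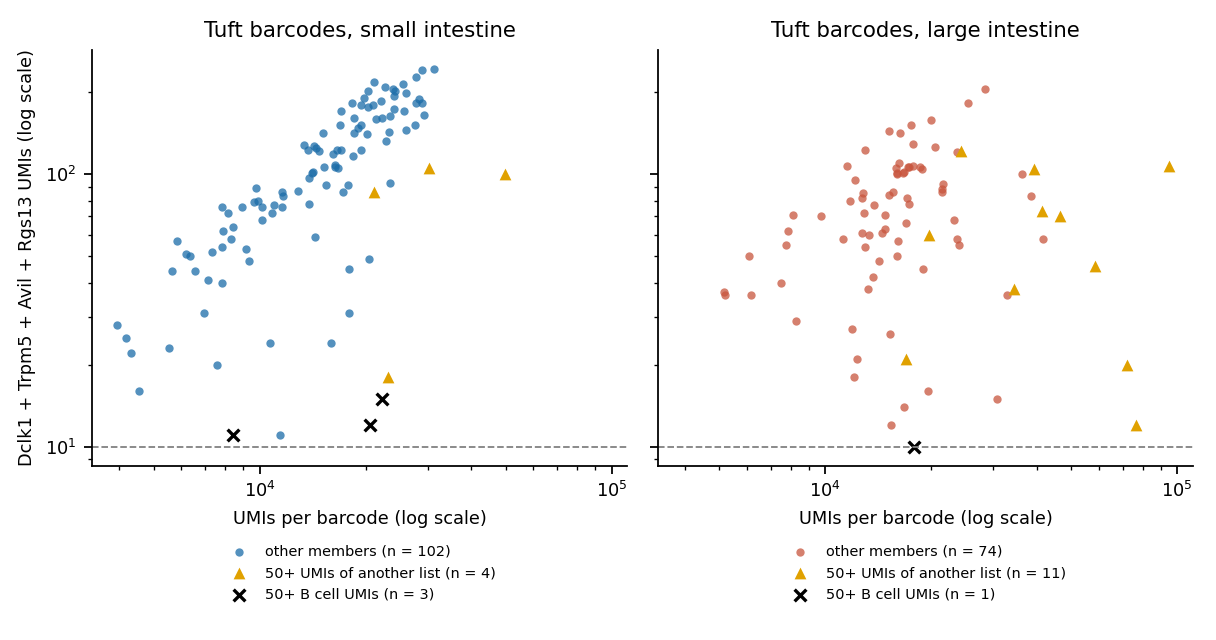
Each point is 1 tuft barcode, with its UMI count on the x axis and the summed UMIs of Dclk1, Trpm5, Avil and Rgs13 on the y axis (both log scales; the dashed line is the limit of 10 UMIs). Triangles mark the mixed barcodes without B cell markers, and crosses those with 50 or more UMIs of B cell markers, which lie near the limit, at 10 to 15 UMIs.

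Other marker lists differed in how far they reached into the members. All 8 mast cell or basophil markers were at 0 UMIs in both tissues, and 5 of 7 T or NK cell markers in the small and 6 of 7 in the large intestine, Cd3e among them. The 7 macrophage markers summed to between 0 and 4 UMIs per barcode in the small and 0 and 3 in the large intestine. The 8 Paneth cell markers were present in every small intestinal member, with 16 to 373 UMIs, at a summed 3765 CPM against 120687 CPM in the other Epcam-positive barcodes. The 7 goblet cell markers summed to 1569 CPM against 25526 CPM in the small and to 2588 CPM against 27073 CPM in the large intestine, and to 643 and 1043 CPM in the members without mixed barcodes. The 8 enterocyte markers reached 50 or more UMIs in 19 small intestinal members, with up to 296, and stood at 302 CPM against 357 CPM in the large intestine (141 CPM without mixed barcodes). The 5 plasma cell markers reached 50 or more UMIs in 4 large intestinal members, with up to 118. The other Epcam-positive barcodes themselves held markers of cells outside the epithelium. In the small and large intestine these stood at 10450 and 11077 CPM for plasma cells, 124 and 155 CPM for macrophages and 118 and 335 CPM for fibroblasts. The 5 lymphatic endothelial markers were slightly higher in the members than in the other barcodes, at 121 against 111 CPM in the small and 50.2 against 42.3 CPM in the large intestine, with at most 13 UMIs in a member. Whether any of these levels came from free RNA in the droplets was not tested. Lgr5, the stem cell gene used in the sort, had 69 UMIs in 29 small and 72 UMIs in 29 large intestinal members, and the added GFP-PLUS feature 41 UMIs in 27 and 34 UMIs in 17. GFP-PLUS stood at 22.8 CPM against 3.23 CPM in the other small intestinal barcodes (log2 ratio 2.82, interval 2.29 to 3.32). In the large intestine it stood at 19.2 against 15.2 CPM (0.33, -0.20 to 0.82).

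The genes that stood highest over the other epithelium in both tissues spanned receptors, signal transduction, transcription factors and immune-type signalling. Of 5038 genes with at least 50 tuft UMIs in the small intestine, 522 (10.4%) were at least 4-fold higher in tuft barcodes. In the large intestine these were 224 of 4908 genes (4.56%), and 187 of the 4333 genes measured in both (4.32%) passed in both. The median log2 ratio over all genes was 0.64 in the small and 0.18 in the large intestine. Of the 20 leading genes by the smaller of their ratios, 19 are named here. They were Gnat3, Hmx3, Itprid1, Rgs13, Chat, Hmx2, Ly6g6f, Trpm5, Sh2d6, Sh2d7, Gfi1b, Dclk1, Avil, Alox5, Bmx, Pou2f3, Matk, Gng13 and Ffar3. Their log2 ratios ran from 8.62 to 12.46, and 4 of them are the genes of the rule. Itprid1, named for a domain that interacts with inositol trisphosphate receptors, had 186 UMIs in 82 small and 108 UMIs in 56 large intestinal members, against 3 UMIs in each of the other groups (log2 ratios 10.69, interval 9.12 to 12.98, and 11.33, 9.75 to 13.63). As the rule chose barcodes on the same comparison, these counts describe the members and nothing is read from them.

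**Figure D2:**
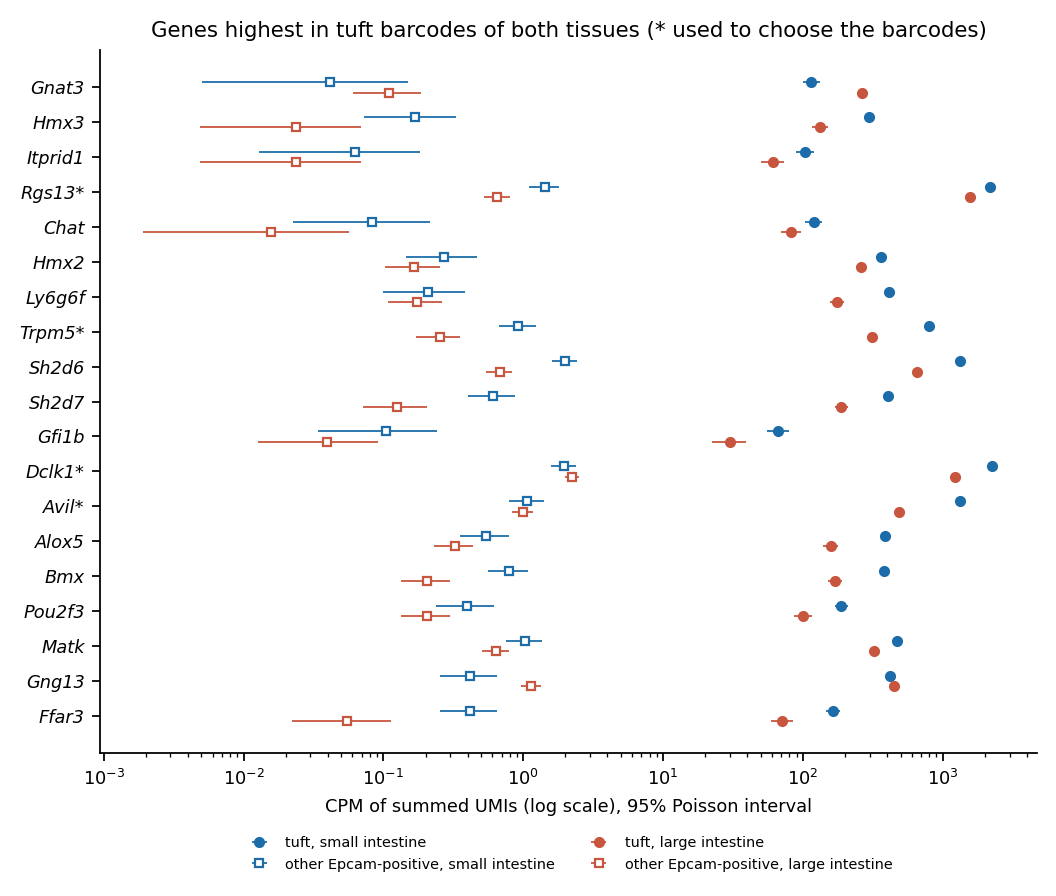
CPM (log scale) of the 19 named leading genes in tuft barcodes (filled circles) and other Epcam-positive barcodes (open squares) of the small (blue) and large (red) intestine, with 95% Poisson intervals. Every gene is at least 29.9 CPM in tuft barcodes and at most 2.24 CPM in the others, and asterisks mark the 4 genes that chose the barcodes.

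Among chemosensory and cytokine receptors, 3 of 18 listed genes (Ffar3, Il17rb and Il13ra1) were at least 4-fold higher in tuft barcodes of both tissues, where 4.32% of all genes were; only 4 of the 18 had 50 UMIs in both. Sucnr1 (chr3:60081869-60087566), the succinate receptor, had 140 UMIs in 43 small intestinal members (78.0 CPM) and 37 UMIs in 16 large intestinal members (20.9 CPM), against 3 and 2 UMIs in the other Epcam-positive barcodes. Its small-to-large log2 ratio was 1.90 (interval 1.37 to 2.47), and 1.42 without mixed barcodes. Ffar3, a receptor for short-chain fatty acids, had 295 UMIs in 78 and 126 UMIs in 47 members, a tissue ratio of 1.21 (0.90 to 1.52). Ffar2, the other receptor for these acids, was at 2 and 10 UMIs in the members and at 386 and 4839 UMIs in the other barcodes, so the pair lay on opposite sides of the remaining epithelium.

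Vmn2r26 (ENSMUSG00000096630, chr6:124024758-124062035), a receptor of the vomeronasal family, was found in 28 small intestinal members with 111 UMIs (61.8 CPM, interval 50.8 to 74.4) and in none of the 86 large intestinal members. With the large intestinal count set to 3 UMIs over the group, its log2 ratio was 5.19 (4.75 without mixed barcodes), and its counting interval began at 4.87. After every barcode was thinned to 5000 UMIs it was seen in 15.2% of small intestinal members (8.97% to 23.6%) and in 0 of 86 large intestinal ones, where 3 counts would be 3.49% and the exact interval reaches 4.20%. The taste receptor genes Tas1r1, Tas2r108, Tas2r131, Tas2r138 and Tas2r143 had 0 UMIs in the members of both tissues, and Tas1r3 had 7 and 7.

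Il17rb, a subunit of the receptor for interleukin 25, had 153 UMIs in 62 and 64 UMIs in 39 members (tissue ratio 1.24, interval 0.81 to 1.68). Il13ra1, which binds interleukin 13, was the most widely detected receptor, with 794 UMIs in 97 and 654 UMIs in 84 members, and a tissue ratio of 0.26 (0.11 to 0.41) that was -0.0049 without mixed barcodes. Il4ra, its partner chain, had log2 ratios over the other epithelium of 1.81 and 1.43. Over the 7 receptors with 50 UMIs in either tissue, 4 were at least 2-fold higher in the small and none in the large intestinal members, with a median log2 ratio of 1.21. Over all 5613 genes compared between the tissues, 7.75% were at least 2-fold higher in the small and 6.72% in the large intestinal members, with a median of 0.09. These shares, and the 4.32% of genes at least 4-fold higher in both tissues, are the background to the counts of every list below. A gene with 50 UMIs in only 1 tissue entered the tissue counts through the tissue in which it was higher, as Sucnr1, Vmn2r26 and Il4ra did here, so these counts and medians are descriptions only.

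The transduction genes stood apart in both tissues, but not all in the same tissue. Of 14 listed genes, 10 were at least 4-fold higher than in the other epithelium in both tissues, where 4.32% of all genes were, and 2 of the 10, Trpm5 and Rgs13, are rule genes. Gnat3 (ENSMUSG00000028777, chr5:17962570-18019668), the alpha subunit of the taste G protein gustducin, was the main exception to the higher small intestinal levels. It had 470 UMIs in 68 large intestinal members (265 CPM, interval 242 to 290) and 206 UMIs in 23 small intestinal members (115 CPM, 99.6 to 131), and 1 small intestinal barcode held 53.4% of those UMIs. Its small-to-large log2 ratio was -1.21 (-1.45 to -0.97), and -1.56 without mixed barcodes. After thinning it was seen in 57.0% (45.8% to 67.6%) of large and 14.3% (8.22% to 22.5%) of small intestinal members, and in 0.0925% and 0 of the other barcodes.

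The other G protein subunits are given next. Gng13, the gamma subunit that pairs with it in taste cells, stood at 421 CPM among small and 451 CPM among large intestinal members, a tissue ratio of -0.10 (-0.25 to 0.05). Gnb3, a beta subunit of the same complex, had 11 UMIs in 5 small and 96 UMIs in 7 large intestinal members, but 65.6% of the latter came from 1 barcode. Gnai2, an inhibitory alpha subunit, was at 1061 and 760 CPM and was found in 108 of 109 and 86 of 86 members.

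Further down the chain the genes named next were higher in the small intestinal members. Plcb2, the phospholipase C of taste cells, was at 296 and 127 CPM (tissue ratio 1.22, interval 1.00 to 1.45), and Plcg2, another phospholipase C, at 437 and 157 CPM (1.48, 1.28 to 1.68). Itpr2, an inositol trisphosphate receptor that releases calcium from stores, had 1352 UMIs in 108 and 399 UMIs in 80 members, a ratio of 1.74 (1.58 to 1.91), while its relative Itpr3 was near the level of the other epithelium, with log2 ratios of 0.40 and -0.62. Rgs22, which carries a domain of the G protein signalling regulators, was at 197 CPM (177 to 218) and 33.8 CPM (25.8 to 43.6), a ratio of 2.54. The channel gene Trpm5, used by the rule, was at 796 and 312 CPM. In all, 7 of 13 transduction genes with 50 UMIs, Trpm5 among them, were at least 2-fold higher in the small and 2 in the large intestinal members (6 and 2 without mixed barcodes), where 7.75% and 6.72% of all genes were. Their median log2 ratio was 1.22.

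**Figure D3:**
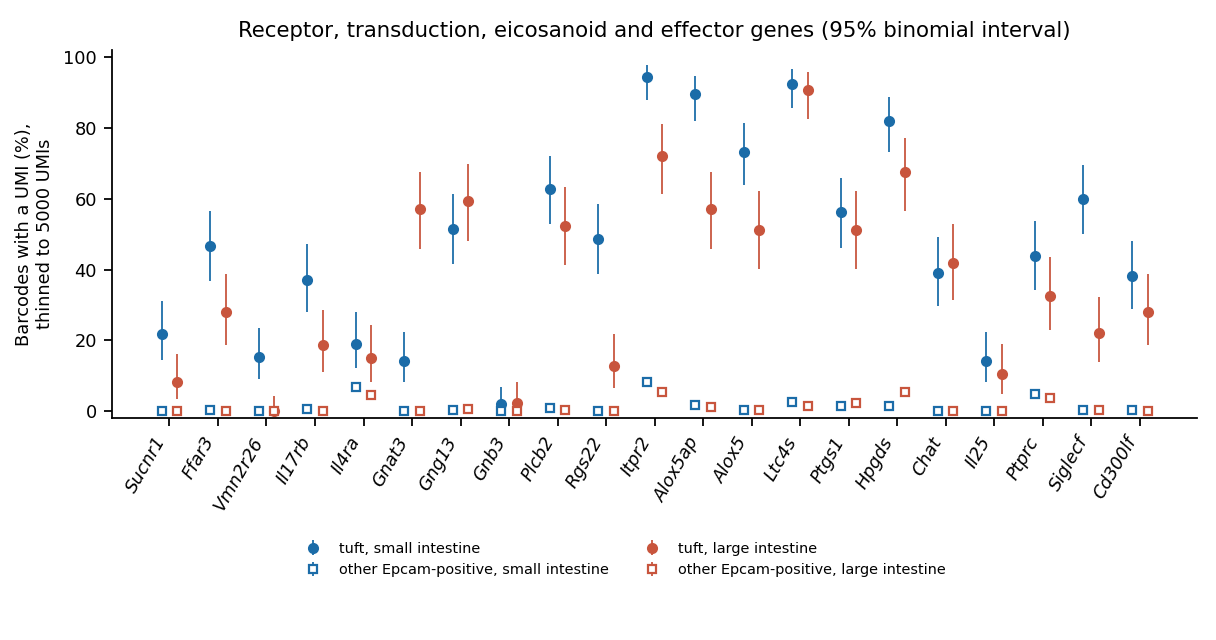
Percent of barcodes with a UMI of each gene after thinning to 5000 UMIs, in tuft (filled circles) and other Epcam-positive barcodes (open squares) of the small (blue, 105 tuft barcodes) and large (red, 86) intestine, with 95% binomial intervals. Gnat3 is seen in 57.0% of large against 14.3% of small intestinal members, whereas Alox5ap is seen in 57.0% against 89.5%.

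Genes of eicosanoid synthesis, the making of lipid mediators from arachidonic acid, were tuft-high in both the leukotriene and the prostaglandin branch. Of 14 listed genes, 5 were at least 4-fold higher than in the other epithelium in both tissues, where 4.32% of all genes were. They were Alox5, Alox5ap and Ltc4s of the leukotriene branch, and Ptgs1 and Hpgds of the prostaglandin branch. Alox5ap (chr5:149265004-149288153), which presents arachidonic acid to 5-lipoxygenase, was at 1448 CPM (1393 to 1504) in the small and 323 CPM (297 to 351) in the large intestinal members. Its tissue ratio was 2.16 (2.03 to 2.30), and 1.97 without mixed barcodes. With depth thinned, 89.5% of the small and 57.0% of the large intestinal members had an Alox5ap UMI, as did 1.79% and 1.23% of the other barcodes. Alox5, the 5-lipoxygenase itself, was at 388 and 157 CPM (1.30, 1.10 to 1.51), and Ltc4s, the leukotriene C4 synthase, at 1004 and 684 CPM (0.55, 0.45 to 0.66).

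Ptgs1, the constitutive cyclooxygenase, was at 226 and 187 CPM, a ratio of 0.27 (0.06 to 0.48) that was 0.05 without mixed barcodes. Hpgds, the prostaglandin D synthase of blood cells, was at 399 and 261 CPM, a ratio of 0.62 (0.44 to 0.79). Pla2g4a, the phospholipase that frees arachidonic acid, was at 315 and 153 CPM in tuft barcodes, but its level in the other epithelium was 10.9 CPM in the small and 64.4 CPM in the large intestine. Ptgs2, the inducible cyclooxygenase, had 34 UMIs in 4 small intestinal members, of which 91.2% were in 1 barcode, and 3 UMIs in 1 large intestinal member. Ptges, Ptgds and Tbxas1, which make prostaglandin E, prostaglandin D and thromboxane, had 0 UMIs in both. Lta4h, which makes leukotriene B4, lay below the other epithelium at log2 ratios of -1.07 and -0.75. Of the 9 eicosanoid genes with 50 UMIs, 3 were at least 2-fold higher in the small and 1 in the large intestinal members, where 7.75% and 6.72% of all genes were. Without mixed barcodes these were 2 and 0.

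Effector transcripts were sparse. Il25, the cytokine by which tuft cells start type 2 immunity, had 35 UMIs in 28 small and 32 UMIs in 24 large intestinal members, against 1 and 4 UMIs in all other Epcam-positive barcodes; its tissue ratio of 0.11 had an interval of -0.62 to 0.85. Tslp, another cytokine of epithelial alarm, had 39 UMIs in 22 and 7 UMIs in 4 members (2.46, 1.28 to 3.87). Chat (chr14:32408203-32465909), the enzyme that makes acetylcholine, had 215 UMIs in 78 and 146 UMIs in 56 members, and after thinning was seen in 39.0% and 41.9%. Slc18a3, the vesicular acetylcholine transporter, lies inside the Chat locus (chr14:32462437-32464850) and had 9 UMIs in each tissue, which the authors' counting could have split from Chat. Slc5a7, the choline transporter, had 0 UMIs in both. Of 7 listed effectors only Chat had 50 UMIs, and it was at least 4-fold higher than in the other epithelium in both tissues.

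Of 15 transcription factors on the list, 8 were at least 4-fold higher than in the other epithelium in both tissues, where 4.32% of all genes were. Pou2f3 (ENSMUSG00000032015, chr9:43123927-43205755), the factor tuft cells need, had 337 UMIs in 95 small and 178 UMIs in 68 large intestinal members (188 and 100.4 CPM), against 19 and 26 UMIs in the others. The neighbouring homeobox genes Hmx2 and Hmx3 (chr7:131548757-131558014 and chr7:131541532-131546027) were both tuft-high, Hmx2 at 361 and 262 CPM and Hmx3 at 297 and 133 CPM, against at most 0.271 CPM in the other groups. Gfi1b, a repressor best known from blood lineages, had 119 UMIs in 62 and 53 UMIs in 36 members. Spib, an Ets factor of B and dendritic cells, was at 455 and 146 CPM and was detected in 106 of 109 small intestinal members. Its tissue ratio was 1.64 (1.44 to 1.85) in tuft barcodes and 2.49 (1.94 to 3.06) in the other epithelium.

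Other factors of the list lay closer to the remaining epithelium or below it. Sox9, a factor of crypt cells, was at 599 and 407 CPM against 61.7 and 124 CPM. Atoh1, which directs goblet, Paneth and enteroendocrine cells, lay below the other epithelium at log2 ratios of -3.91 in the small and -2.51 in the large intestine, the latter -4.16 without mixed barcodes. Hes1, a target of Notch signalling, was at -1.92 and -1.78, the latter -2.49 without mixed barcodes. Zfp710, which reached 50 UMIs in the small intestine alone, had 137 UMIs in 64 small and 21 UMIs in 18 large intestinal members, a tissue ratio of 2.69 (2.02 to 3.42). Of 12 factors with 50 UMIs, 4 were at least 2-fold higher in the small and none in the large intestinal members, where 7.75% and 6.72% of all genes were. Without mixed barcodes 2 were at least 2-fold higher in the small and none in the large intestinal members.

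Because Pou2f3 was among the leading genes, promoters were searched for ATGCAAAT, the octamer that POU-domain factors are known to bind, and for its reverse complement ATTTGCAT. The windows ran from 250 bases before to 50 bases after each RefSeq start on GRCm38.p6. The octamer was present for 532 of 27025 genes (1.97%), for 57 of the 3471 genes with 50 tuft UMIs in both tissues that had a window (1.64%), and for 8 of the 147 genes at least 4-fold higher in both tissues that had one (5.44%). Of the 20 leading genes 18 had a window, and 0 of these held the octamer. A match shows these letters and not a bound site. The promoters of 3 listed genes that were at least 4-fold higher in both tissues and held the octamer are shown 5′ to 3′, all from the minus strand, with the octamer in capitals: Hpgds (chr6:65144681-65144980) with 1 match from base 77 of the window, Kctd12 (chr14:102982588-102982887) with 1 from base 91, and Ly6g6d (chr17:35081190-35081489) with 2 on its reverse strand, the first from base 203.
Hpgds: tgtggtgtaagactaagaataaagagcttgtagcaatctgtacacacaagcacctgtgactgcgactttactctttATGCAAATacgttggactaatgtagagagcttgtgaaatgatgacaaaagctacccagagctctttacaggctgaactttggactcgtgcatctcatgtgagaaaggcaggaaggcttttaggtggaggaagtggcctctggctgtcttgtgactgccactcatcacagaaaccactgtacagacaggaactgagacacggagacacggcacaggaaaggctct
Kctd12: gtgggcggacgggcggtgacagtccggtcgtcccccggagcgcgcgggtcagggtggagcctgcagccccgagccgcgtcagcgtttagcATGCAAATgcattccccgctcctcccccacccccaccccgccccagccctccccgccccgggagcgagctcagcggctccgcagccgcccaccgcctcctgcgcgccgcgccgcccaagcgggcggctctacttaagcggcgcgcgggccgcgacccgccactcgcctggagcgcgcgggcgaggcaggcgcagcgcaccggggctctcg
Ly6g6d: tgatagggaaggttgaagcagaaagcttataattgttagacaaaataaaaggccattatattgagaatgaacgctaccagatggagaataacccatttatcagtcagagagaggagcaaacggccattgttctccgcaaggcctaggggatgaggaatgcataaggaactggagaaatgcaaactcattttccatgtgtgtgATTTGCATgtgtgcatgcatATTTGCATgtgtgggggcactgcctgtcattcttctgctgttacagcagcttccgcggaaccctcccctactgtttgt
Hpgds is the prostaglandin synthase given above. Kctd12, an auxiliary subunit of GABA-B receptors in neurons, had 4531 UMIs in 106 small and 1196 UMIs in 81 large intestinal members (2523 and 675 CPM), with a tissue ratio of 1.90 (1.81 to 1.996). Ly6g6d was at 324 and 140 CPM; its promoter window lies within the Ly6g6f locus (chr17:35080538-35085595), so reads of these neighbours may have been split between them. The fourth listed gene with the octamer, Nradd, was at 45.1 and 44.6 CPM.

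Cytoskeletal and brush border genes included the rule genes Dclk1 and Avil, and 8 of 16 listed genes, these among them, were at least 4-fold higher in tuft barcodes of both tissues, where 4.32% of all genes were. Espn, an actin bundler of microvilli, was at 1046 and 614 CPM, against 52.4 and 26.8 CPM in the other epithelium. Vil1, the villin of all brush borders, was at 561 and 292 CPM against 282 and 124 CPM. The keratin Krt18 was at 7346 and 6091 CPM, with log2 ratios over the other epithelium of 4.08 and 3.15, and its partner Krt8 at 7227 and 5441 CPM. Krt20, a keratin of mature surface cells, was low, at log2 ratios of -5.08 and -2.83, the latter -4.18 without mixed barcodes.

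Of the 14 genes of this list with 50 UMIs, 2, Avil and Cdhr5, were at least 2-fold higher in the small and 2, Krt19 and Eps8, in the large intestinal members. Of all genes 7.75% and 6.72% were. Krt19 had 221 UMIs in 52 small and 1207 UMIs in 67 large intestinal members, a tissue ratio of -2.47 (-2.68 to -2.26) and of -3.26 without mixed barcodes, against 0.16 in the other epithelium. Eps8, an actin capping protein of microvilli, had 27 UMIs in 23 and 155 UMIs in 54 members, a ratio of -2.54 (-3.19 to -1.94) against 0.27 in the other epithelium. For Krt19 and Eps8 the small intestinal members were far below the remaining small intestinal epithelium, at log2 ratios of -3.74 and -2.61.

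The haematopoietic-type signalling genes, best known from white blood cells, formed the longest list. All 28 had 50 UMIs in the small intestinal members and were at least 4-fold higher there, where 10.4% of all genes were. In both tissues 26 had 50 UMIs and 25 passed, where 4.32% of all genes did. The median log2 ratio of those with 50 UMIs was 6.43 in the small and 5.48 in the large intestine. This list, like the others, was chosen with earlier results of these data known, so its counts are descriptions only. The adaptor Sh2d6 was at 1338 and 654 CPM and its relative Sh2d7 at 406 and 188 CPM. Ptprc, the pan-leukocyte phosphatase CD45, had 366 UMIs in 67 small and 164 UMIs in 46 large intestinal members (204 and 92.5 CPM), while Cd3e was at 0 in both and B cell markers were near 0 outside the 4 barcodes named above. Lrmp, an endoplasmic reticulum protein of lymphocytes, was at 1926 and 1225 CPM, and Cd24a, a surface glycoprotein, was found in 109 of 109 and 86 of 86 members.

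With all barcodes the 28 haematopoietic-type genes had positive small-to-large ratios, 14 of 28 were at least 2-fold higher in the small and 0 in the large intestinal members, where 7.75% and 6.72% of all genes were, and the median log2 ratio was 1.00 against 0.09 over all genes. Without mixed barcodes the median was 0.76 and 5 of 28 were at least 2-fold higher. Hebp1, a haem-binding protein that reached 50 UMIs in the small intestine alone, had 93 UMIs in 55 small and 9 UMIs in 6 large intestinal members, a ratio of 3.35 (2.36 to 4.52). Better covered were Siglecf, a sialic acid receptor of eosinophils, with 478 UMIs in 82 small and 144 UMIs in 37 large intestinal members (1.71, 1.44 to 1.99), and Inpp5d, a phosphatase that dampens phosphoinositide signals (1.74, 1.48 to 2.01). Cd300lf, the entry receptor for murine norovirus, had 235 UMIs in 71 and 132 UMIs in 48 members (0.81, 0.50 to 1.13).

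Short lists of neuron-related and immune-related genes were read because tuft cells have been divided into subsets by such genes. Of 9 neuron-related genes 5 were at least 4-fold higher than in the other epithelium in both tissues, where 4.32% of all genes were. Between tissues 1 of 8 with 50 UMIs was at least 2-fold higher in the small intestinal members, near the 7.75% of all genes. The median tissue ratio was 0.24. That gene was Nrgn, a calmodulin-binding protein of neurons, with 935 UMIs in 87 small and 256 UMIs in 48 large intestinal members (1.85, 1.65 to 2.06), and 1 small intestinal barcode held 17.4% of its UMIs. Nrep had a ratio of 0.72, Nradd of 0.02 and Endod1 of -0.99 (-1.52 to -0.48). Of 8 immune-related genes 7 were at least 4-fold higher in both tissues, where 4.32% of all genes were. Between tissues 4 of 7 were at least 2-fold higher in the small intestinal members (3 without mixed barcodes), against 7.75% of all genes, with a median of 1.14. The difference between the lists was not tested.

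At the other end, the 10 genes lowest in tuft barcodes of both tissues were products of other epithelial and immune cells. They were Chgb, Nts and Pyy of enteroendocrine cells, Reg4, Clps, Ang4, Spink4 and Slpi, which are secreted by epithelial cells, the chemokine gene Ccl6, and C1qa of macrophages. Chgb, a granule protein of hormone cells, had 3 and 2 UMIs in the members against 7113 and 12140 UMIs in the other barcodes. Spink4, a goblet cell peptide, was at 226 and 477 CPM against 7076 and 9575 CPM.

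Of 11 antimicrobial and pore-forming genes, 5 in the small and 8 in the large intestine had 50 tuft UMIs. This limit on tuft UMIs leaves out genes that were low in the members, such as Ang4 in the large intestine with 15 UMIs against 23653 in the other barcodes (log2 ratio -4.46), so lower genes were not counted. The lectin gene Reg3b was at 122 CPM in the small intestinal members and at 6296 CPM in the remaining small intestinal epithelium. In the large intestine it was at 1543 against 3719 CPM, and 1 barcode held 35.1% of its tuft UMIs. Class II antigen presentation genes depended on a few barcodes. Cd74, the invariant chain, had 601 UMIs in 45 small intestinal members, of which 38.1% were in 1 barcode. Its log2 ratio to the other small intestinal epithelium was -1.30, and -4.89 without mixed barcodes, which include the B cell marker barcodes; in the large intestine these were -2.35 and -3.06. The tissue ratio of Cd74 likewise went from -0.21 to -3.10, and that of H2-Aa from -0.13 to -3.05. Of the 4 class II genes with 50 UMIs, 0 were at least 2-fold higher in the large intestinal members with all barcodes and 4 without mixed ones. Of all genes, 6.72% were with all barcodes and 227 of 4917 without mixed ones. The list median went from -0.25 to -2.83.

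Across all genes, 812 of 5613 (14.5%) differed at least 2-fold between small and large intestinal members, 435 higher in the small and 377 in the large intestine. Without mixed barcodes 405 and 227 of 4917 genes were higher in the small and in the large intestine. The leading tuft genes were mostly higher in the small intestine: 18 of 20, with a median log2 ratio of 1.04 and 11 at least 2-fold higher. Without mixed barcodes the median was 0.76 and 4 of 20 were at least 2-fold higher (Trpm5, Avil, Alox5 and Ffar3), while Gnat3 was at least 2-fold higher in the large intestine with and without them. Since members were chosen on summed UMIs of Dclk1, Trpm5, Avil and Rgs13, the levels of these 4 genes are tied to the rule.

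The genes with the largest small intestinal excess were of several kinds. Defa24, Defa30, Defa22, Defa21, AY761184, Defa29, Lyz1 and Itln1 are Paneth cell products, and each was lower in tuft barcodes than in the remaining small intestinal epithelium. Defa24 was found in 109 of 109 small intestinal members at 2135 CPM, against 67507 CPM in the other epithelium. Lgals2, a galectin of gut epithelium, had 5794 UMIs in 109 small and 10 UMIs in 9 large intestinal members, a log2 ratio of 9.16 (8.28 to 10.22), and was at a like level in the other small intestinal barcodes (3226 and 3515 CPM). Olfm4 (297 and 0 UMIs), a stem cell gene, had 52.9% of its tuft UMIs in 1 barcode, and 94 UMIs without mixed barcodes.

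Other genes of this group were high in small intestinal tuft barcodes and low elsewhere. Lect2 (chr13:56529734-56548559), a secreted protein first described as a leukocyte attractant, had 211 UMIs in 66 small intestinal members (117 CPM) and 2 UMIs in the large intestinal ones (log2 ratio 6.12, interval 4.83 to 9.76), against 27 and 0 UMIs in the other epithelium. Basp1 (chr15:25363277-25413764), a membrane protein of nerve growth cones, had 582 UMIs in 70 small and 15 UMIs in 5 large intestinal members, a ratio of 5.26 (4.53 to 6.11) and of 7.05 without mixed barcodes, while the other epithelium had -0.56. Tm4sf4, a tetraspan membrane protein, had 2287 UMIs in 104 small and 41 UMIs in 10 large intestinal members, of which 63.4% were in 1 barcode (5.78, 5.34 to 6.27).

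Some of the genes with the largest large intestinal excess were products of colonic epithelium that the other epithelium held at a higher level, such as Car1. Foxd2os was near the level of the other large intestinal barcodes, at 80.1 against 74.6 CPM. Car1, a carbonic anhydrase of colonocytes, had 731 UMIs in 54 large and 0 in the small intestinal members, but 1 barcode held 37.6% of them and the other large intestinal epithelium stood at 1135 CPM, against 412 CPM in the tuft barcodes. Without mixed barcodes 92 of the 731 UMIs remained and the tissue ratio went from -7.95 to -5.33. For Sycn and Retnlb 1 barcode held 77.8% and 55.9% of the UMIs, and the tissue ratios went from -7.36 to -5.25 and from -7.45 to -6.31 without mixed barcodes. S100a6 went from a tissue ratio of -6.57 to -5.02 without mixed barcodes, and Hsd11b2 from -5.39 to -2.40. B3galt2 (chr1:143640697-143649937) and Anxa1 (chr19:20373434-20390671) were, by contrast, at least 4-fold higher in the large intestinal members than in the remaining epithelium of the same tissue. B3galt2, a galactosyltransferase, had 191 UMIs in 46 large and 0 in the small intestinal members, a small-to-large log2 ratio of -6.01 with the count of 0 set to 3, and a counting interval that reached up to -5.70. Anxa1, a calcium-dependent membrane-binding protein, had 394 UMIs in 73 large and 10 UMIs in 8 small intestinal members, a ratio of -5.32 (-6.39 to -4.42), and was at 222 CPM against 54.3 CPM in the other large intestinal barcodes.

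**Figure D4:**
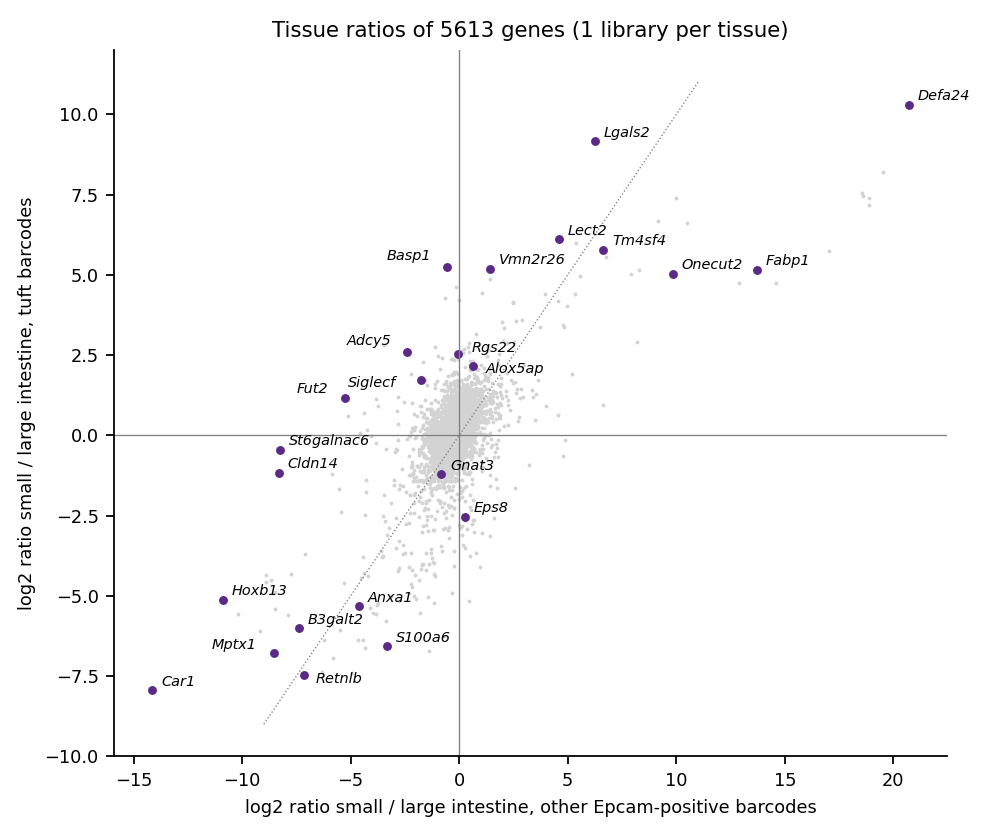
Log2 ratio of CPM between small and large intestine for 5613 genes, in other Epcam-positive barcodes (x axis) and tuft barcodes (y axis), with 24 genes labelled and the dotted line marking equal ratios. Basp1 (5.26 in tuft, -0.56 in other barcodes) lies above that line, and Eps8 (-2.54 and 0.27) below it.

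Genes that mark position along the gut were read to see whether tuft barcodes carried the same regional code as their neighbours. Of the 20 listed genes 19 were in the files. Those with 50 tuft UMIs numbered 5 in the small and 7 in the large intestine, and 0 of these were at least 4-fold higher in tuft than in other barcodes. Of all genes 10.4% and 4.56% were. Onecut2, a factor of the small intestine, had 100 UMIs in 42 small and 0 in the large intestinal members. Hoxb13 (chr11:96194316-96196610), a homeobox gene of the distal colon, had 103 UMIs in 29 large and 0 UMIs in the small intestinal members, and was at 58.1 CPM against 118 CPM in the other large intestinal barcodes. Hoxd13 (chr2:74668225-74671603), the most distal of its cluster, had 3 UMIs in 3 large intestinal members against 1307 UMIs in the others. These groups totalled 1.77e+06 and 1.27e+08 UMIs, so the raw counts are not levels. Of the 8 regional genes with 50 UMIs, 1 was at least 2-fold higher in the small and 3 in the large intestinal members, where 7.75% and 6.72% of all genes were.

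Several genes differed far less between the tissues in tuft barcodes than in the other epithelium. St6galnac6, a sialyltransferase, was at 80.2 and 109 CPM in small and large intestinal members, but at 0.668 and 201 CPM in the other epithelium. Fut2, the fucosyltransferase of secreted blood group antigens, was at 106 and 46.8 CPM in the members and at 2.48 and 94.7 CPM in the others. Cldn14, a claudin of tight junctions, was at 32.9 and 73.9 CPM against 0.0626 and 19.9 CPM. Mcub, an inhibitory subunit of the mitochondrial calcium uniporter, was at 236 and 146 CPM against 0.960 and 20.4 CPM. Adcy5, an adenylyl cyclase, had ratios of opposite sign, 2.61 in tuft barcodes (131 and 21.4 CPM) and -2.40 (-3.49 to -1.48) in the rest (0.209 and 1.10 CPM). Fabp1, a fatty acid-binding protein of enterocytes, had 80 UMIs in 31 large intestinal members and 12 UMIs in 5208 other barcodes there, and was at 1614 and 1277 CPM in small intestinal members and other barcodes.

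The members also varied among themselves. After the values were seen, Sox4, a factor of immature secretory cells, and Krt18 were taken as the ends of a gradient, in barcodes without the mixed ones and thinned to 5000 UMIs. Across 98 small and 74 large intestinal barcodes, which share a library and a depth, Spearman's rho between them was -0.53 and -0.63. Sox4 had 0 UMIs in 42 and 23 barcodes and at most 27 and 26. Krt18 had a median of 55 and 61 UMIs where Sox4 was 0, and of 18.5 and 11.5 where Sox4 had 5 or more (20 and 18 barcodes). Sox4 correlated with the depth before thinning at -0.37 and 0.03 and with the mitochondrial percentage at -0.27 and -0.41. The part of depth and mitochondrial content in this gradient was not tested.

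The genes named next were ranked by the weaker of their rho values over both tissues, so that a shared sign was fixed by the choice. With Krt18 went Krt8 (rho 0.73 in the small and 0.89 in the large intestine), Ptpn18 (0.69 and 0.70), Crip1 (0.63 and 0.83) and Cdhr5 (0.61 and 0.65), a protocadherin that links microvilli. Other genes had opposite signs against Sox4, such as Lrmp (-0.60 in the small and 0.31 in the large intestine) and Pla2g4a (-0.09 and 0.50). With Sox4 went Tubb5 (0.57 and 0.51), a tubulin, Stmn1 (0.47 and 0.66), a microtubule regulator of growing cells, and Myb (0.42 and 0.50), a factor of progenitor cells. Rack1, Naca and Npm1 ran against Krt18, at -0.49, -0.41 and -0.38 in the small and -0.52, -0.46 and -0.58 in the large intestine. So did Hsp90ab1 (-0.39 and -0.42) and Gpx2 (-0.37 and -0.60).

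**Figure D5:**
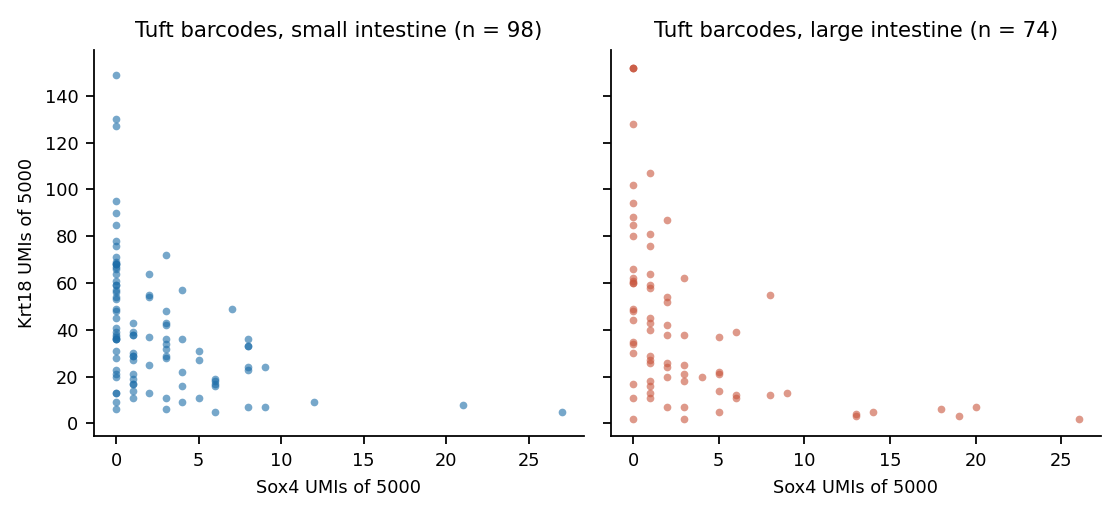
Sox4 (x axis) and Krt18 UMIs (y axis) in each tuft barcode after thinning to 5000 UMIs, without mixed barcodes, for the small (98 barcodes) and large intestine (74). Barcodes with many Sox4 UMIs lie low on Krt18 in both panels (rho -0.53 and -0.63).

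Receptors were found in overlapping sets of members, and the detection of low genes depends on depth. Among the 102 small intestinal members without mixed barcodes, 21 had a Gnat3 UMI, 27 a Vmn2r26 UMI and 4 both. In the large intestine 59 of 74 had Gnat3, 56 had Gng13 and 45 both. Sucnr1 was found in 42 small intestinal members, of which 40 also had Ffar3, which 77 had in all; in the large intestine these were 16, 11 and 41. Of 28 small intestinal members with Il25, 26 also had Chat, which 75 had in all. These pairs were picked after the values were seen.

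The Visium sections, in which each spot collects RNA from several cells of a 10 µm cryosection, were libraries that the rule did not use, with 2 technical duplicates per tissue. All 20 leading tuft genes were higher in both small than in both large intestinal sections, where 42.6% of the 14402 genes with at least 10 UMIs in every section were; 16 of the 20 had that many. The small intestinal sections summed to 199 and 191 CPM over these genes and the large intestinal ones to 40.3 and 42.4 CPM, with a median log2 ratio of 2.31 against 0.01 over all genes. Other lists varied. Of 18 receptors 12 were higher in both small and 0 in both large intestinal sections. For 15 transcription factors these counts were 7 and 6, for 14 eicosanoid genes 8 and 5, and for 16 cytoskeletal genes 11 and 5. Trpm5 was at 18.5 and 17.9 CPM against 2.79 and 2.76, and Pou2f3 at 6.24 and 4.05 against 0.582 and 0.456. For Sucnr1 the small intestinal sections gave 5.54 and 6.21 CPM and the large ones 0.0242 and 0 CPM. Vmn2r26 was at 1.31 and 2.33 against 0.0242 and 0. Gnat3, which was higher in large intestinal tuft barcodes, was at 0.287 and 0.233 CPM against 0.0485 and 0.205 CPM, a log2 ratio of 0.90 that rested on 7 and 7 against 2 and 9 UMIs. In such sections fewer tuft cells and less RNA per tuft cell cannot be told apart. Spots reaching the limit of 10 UMIs over the 4 rule genes numbered 9 and 10 in the small and 1 and 1 in the large intestinal sections.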

How the data were processed

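Single-cell libraries of sorted small and large intestine were deposited as matrices of raw UMI counts made by Cell Ranger 6.0.1, and Visium sections by Space Ranger 1.2.1, per the file headers. Reads were counted against mm10 per the submitters' processing notes; the annotation release is not given in the sources used here. Members and gene lists were chosen with earlier results of these data known.

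Counts were summed per library and barcode group with Python 3.11.15, numpy 2.4.6, scipy 1.17.1 and pandas 2.3.3; scanpy 1.11.5 and matplotlib 3.10.9 served for doublet scores and plots. With 1 library per tissue no test was possible. Counts of genes over the other epithelium took genes with 50 tuft UMIs, and counts between tissues those with 50 tuft UMIs in either tissue. Named genes were the 20 highest and 10 lowest in tuft barcodes by the smaller absolute log2 ratio over both tissues, with 50 UMIs in the higher group and, for high genes, detection in at least 20% of tuft barcodes, 15 per direction between tissues, 10 per direction by difference of tissue ratios, and all listed genes, of which a few are not reported here. Scrublet marked a top share that grew by 0.8% with each 1000 filtered barcodes of a library, which gave 61 small and 306 large intestinal barcodes. They were kept. Thinning to 5000 UMIs left out 4 small and 0 large intestinal tuft barcodes and 257 and 882 others. The summing, ratio and interval code was checked on simulated data.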

Additional observations from a re-analysis of the deposited data

Results flagged for a closer look

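Il33, an alarm cytokine, stood on opposite sides of the other epithelium in the 2 tissues. Its log2 ratio was -1.66 in the small intestine, where the members had 0 UMIs and the value was computed with a count of 3, and 1.12 in the large intestine, where 13 UMIs came from 1 barcode; without mixed barcodes the large intestinal value was -0.47. The difference was not tested.

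Barcodes passing the tuft rule also occurred in the small intestinal organoid libraries, which entered none of the comparisons. The control organoids held 7 of 540 filtered barcodes (1.30%, exact binomial interval 0.523% to 2.65%), with Trpm5 UMIs in 6 and Dclk1 and Alox5ap UMIs in 1 each. The organoids grown in coculture held 4 of 1037 (0.386%, 0.105% to 0.985%), with Dclk1 UMIs in 3 and Alox5ap UMIs in 2. Median depth was 94791 UMIs in the control and 55604 UMIs in the coculture members, with medians of 13 and 34 UMIs over the rule genes. Tissue members had median depths of 16428 and 16478 UMIs, so the limit of 10 UMIs was lower relative to depth in the organoids. The difference between control and coculture was not tested.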

How the results depend on the processing

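No paired analysis was possible because each tissue had 1 library. Over the alternatives the tuft share of Epcam-positive barcodes ran from 5.004% to 6.91% in the small and from 1.40% to 1.87% in the large intestine. The number of genes at least 4-fold higher in both tissues ran from 177 to 195, and of genes at least 2-fold different between tissues from 609 to 1087, the highest with the UMI limit lowered to 5. Of the values of single genes, 2 of 1548 in the small intestine, 1 of 1593 in the large and 5 of 1224 between tissues were counted as reversed. This count leaves out some changes of sign. Between tissues Bcl2l14 went from 0.04 to -0.19 without mixed barcodes, and Il13ra1 also changed sign. Taking the mean of each barcode's CPM moved 77 of 172 genes in the small and 62 of 177 in the large intestine by over 1.5 times, leaving out mixed barcodes moved 13, 25 and, between tissues, 24 of 153. Comparing with barcodes of 3 Epcam UMIs and none of the rule's genes moved 41 and 33, and a limit of 5 UMIs moved 26, 10 and, between tissues, 25. The other alternatives moved 0 to 25. In the small intestine Anxa1 went to -0.18 as a mean of each barcode's CPM, and H2-Aa to 0.0442 with a limit of 5 UMIs. In the large intestine Il33 went to -0.47 without mixed barcodes, an alternative chosen after seeing the data. Between tissues Gsdmc2 went to 0.0191 without mixed barcodes, Gsdmc4 to 0.19 and Lypd8 to 0.17 with at most 10% mitochondrial UMIs, and Reg4 to 0.78 and Spink4 to 0.45 with a limit of 5 UMIs. The cause was not tested. Counts under 50 UMIs, as for Il25 and Tslp, limit what could be compared, and no value carries the spread between animals.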
